A study of Mus musculus with 12 samples.

Results

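The 8 genes Ccr1, Ccr2, Ccr7, Ccrl2, Cx3cr1, Cxcr4, Fpr1 and Fpr2 code for receptors that read chemokines and other chemoattractants, and they were chosen by symbol from the 55335 genes measured in bone marrow-derived macrophages (BMDMs). RNA from wild-type and Nlrp3-/- BMDMs was sequenced with and without LPS+ATP, in 3 libraries per group and 12 in all. Bone marrow of C57BL/6 mice, 8 weeks old in the study's methods, was grown for 7 days with macrophage colony-stimulating factor, and the adherent cells were taken as BMDMs. Nlrp3-/- mice lack Nlrp3 in every cell and came from another supplier than the wild-type mice. The labels give 4 hours of LPS followed by 30 minutes of ATP, whereas the study's methods give 12 hours of LPS and 2 hours of ATP for its BMDMs, so the time behind these libraries is not certain. Control BMDMs of both genotypes had neither agent. Expression was read as FPKM, a level scaled to transcript length and to the size of the library.

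Chemokine receptors are G protein-coupled receptors of the cell surface that steer migrating leukocytes along gradients of small secreted proteins. Formyl peptide receptors do the same for peptides shed by bacteria and damaged mitochondria. LPS is sensed by Toll-like receptor 4, and ATP from outside the cell opens the P2X7 channel, which in primed macrophages sets off the NLRP3 inflammasome and release of IL-1β. In GENCODE M21 (GRCm38), Ccr1 (ENSMUSG00000025804), Ccr2 (ENSMUSG00000049103), Ccrl2 (ENSMUSG00000043953) and Cx3cr1 (ENSMUSG00000052336) lie on chromosome 9, Fpr1 (ENSMUSG00000045551) and Fpr2 (ENSMUSG00000052270) on chromosome 17, Cxcr4 (ENSMUSG00000045382) on chromosome 1 and Ccr7 (ENSMUSG00000037944) on chromosome 11, and all are protein-coding. Macrophages and monocytes are known to change their set of such receptors when they are activated.

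Nlrp3 ranged over 9.24 to 33.6 FPKM in wild-type BMDMs (6 libraries), and each of the 6 Nlrp3-/- libraries listed it at 0. The X-inactivation transcript Xist was at 32.8 to 56.3 FPKM in Nlrp3-/- and at most 0.0416 FPKM in wild-type BMDMs, while 4 Y-linked genes were listed at 0 in Nlrp3-/- libraries, so genotype and sex cannot be told apart here. Markers of macrophages (Csf1r, Adgre1, Cd68, Lyz2 and others) summed to 10944 to 21054 FPKM over the groups. Lyz2 made most of that sum, and both fell with LPS+ATP. Lyz2 went from 18464 to 9471 FPKM in group means of the wild-type and from 17693 to 9309 FPKM without Nlrp3. Relative to wild-type control means, Nlrp3-/- controls had 0.65 of Csf1r, 0.60 of Cd68, 0.78 of Adgre1, 0.87 of Cd14, 0.96 of Lyz2 and 1.05 of Mertk. The sum therefore does not show equal macrophage content across groups. Markers of T and NK cells and of B cells summed to at most 4.74 FPKM, and those of mast cells and basophils to at most 10.4 FPKM. Pearson's r between libraries on the log2 scale was 0.9897 to 0.9925 within groups. Nothing in the labels says that the replicates were separate mice or cultures, so p-values measure the spread between these libraries, which may be technical. In bulk RNA, fewer cells of a type and less RNA per cell cannot be told apart.

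The window of 250 bases before the start site is shown for the 3 receptors with the largest rise under LPS+ATP and for the one with the largest fall on the log2(FPKM + 1) scale, because these 4 carry the main contrast below. The sequences are from RefSeq, build GRCm38.p6, written 5′ to 3′ on the strand of the gene. The deposited table was made on GRCm39 and holds no coordinates. Fpr1 lies at chr17:17883940-17884189 (minus strand), Fpr2 at chr17:17887574-17887823 (plus strand), the first of 3 windows of Ccrl2 at chr9:111057519-111057768 (minus strand) and Cxcr4 at chr1:128592300-128592549 (minus strand). Capitals mark matches to the κB consensus (in Ccrl2) and to the TATA box TATAAA (in the others).
Fpr1: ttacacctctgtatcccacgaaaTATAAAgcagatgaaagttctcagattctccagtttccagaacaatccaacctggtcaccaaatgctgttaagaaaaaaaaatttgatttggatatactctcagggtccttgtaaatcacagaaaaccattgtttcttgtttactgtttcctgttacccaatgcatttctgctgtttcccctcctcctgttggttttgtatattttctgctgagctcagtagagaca
Fpr2: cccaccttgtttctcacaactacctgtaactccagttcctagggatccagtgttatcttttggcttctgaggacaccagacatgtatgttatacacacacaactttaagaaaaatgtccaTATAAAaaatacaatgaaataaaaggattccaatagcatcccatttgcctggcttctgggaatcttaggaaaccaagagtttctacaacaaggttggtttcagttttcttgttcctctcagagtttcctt
Ccrl2: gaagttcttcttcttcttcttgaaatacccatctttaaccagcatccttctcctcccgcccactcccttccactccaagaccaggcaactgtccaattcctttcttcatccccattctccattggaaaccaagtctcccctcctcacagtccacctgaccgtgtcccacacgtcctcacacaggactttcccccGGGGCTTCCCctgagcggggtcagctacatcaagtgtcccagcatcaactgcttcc
Cxcr4: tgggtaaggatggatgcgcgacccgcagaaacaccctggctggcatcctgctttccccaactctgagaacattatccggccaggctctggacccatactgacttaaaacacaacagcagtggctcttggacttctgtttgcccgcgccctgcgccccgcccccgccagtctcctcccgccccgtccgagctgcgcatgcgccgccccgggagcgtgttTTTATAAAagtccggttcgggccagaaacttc

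Of 6 motifs searched on both strands (the κB consensus, AP-1 TGANTCA, the PU.1 core GAGGAAGT, C/EBP TTGCNNNAA, the interferon-stimulated element and the TATA box TATAAA), only these 2 kinds matched in the windows of the 7 members that had one. The κB consensus began 56 bases before the start site of the Ccrl2 window shown and 74 before that of Ccr1. Of 32851 windows of the same length 7.25% held it. The other windows of Ccrl2 had no match to any of the 6 motifs. A TATA box began 30 bases before the start of Cxcr4, where a match on the other strand overlapped it, 130 before Fpr2 and 227 before Fpr1, and 12.4% of the windows held one. Ccr2 and Cx3cr1 had no match. A match describes the letters and not a bound site.

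LPS+ATP changed the receptors of wild-type BMDMs in both directions. Fpr1 and Fpr2 rose from at most 6.996 FPKM to at least 401 FPKM, Ccrl2 rose 24.8-fold and Ccr7 rose from low levels, while Cxcr4, Ccr2 and Cx3cr1 fell. Ccr1 was 1.79-fold lower, which passed the test but not the fold limit. Genes were called changed when the limma test gave a Benjamini-Hochberg adjusted p under 0.05 over all 12622 tested genes and the log2 fold change of FPKM + 1 was at least 1 in either direction. By this rule 4 receptors rose and 3 fell in wild-type BMDMs, where 19.4% of all tested genes were called, 8.25% higher and 11.2% lower. In Nlrp3-/- BMDMs 3 rose and 3 fell, with a background of 14.8%, 6.64% higher and 8.21% lower. By the adjusted p alone 8 and 7 of the receptors passed, beside 76.4% and 74.3% of tested genes, and the control and stimulated libraries did not overlap for 8 and 8, beside 78.1% and 77.4%. Between genotypes 5 passed by the adjusted p alone without and 4 with LPS+ATP (background 47.8% and 48.5%), and 6 and 7 did not overlap (background 56% and 57.9%). The interaction passed by the adjusted p alone for 6, beside 27.7%. All 8 passed the filter on low values, Ccr2 through its control libraries alone. The median size of the log2 fold change over the 8 was 2.77 in wild-type and 2.64 in Nlrp3-/- BMDMs, beside 0.47 and 0.41 over all tested genes. The 8 and the lists below were chosen with earlier results of these data known. Setting them beside all tested genes therefore describes them and is no test of the family.

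**Figure D1:**
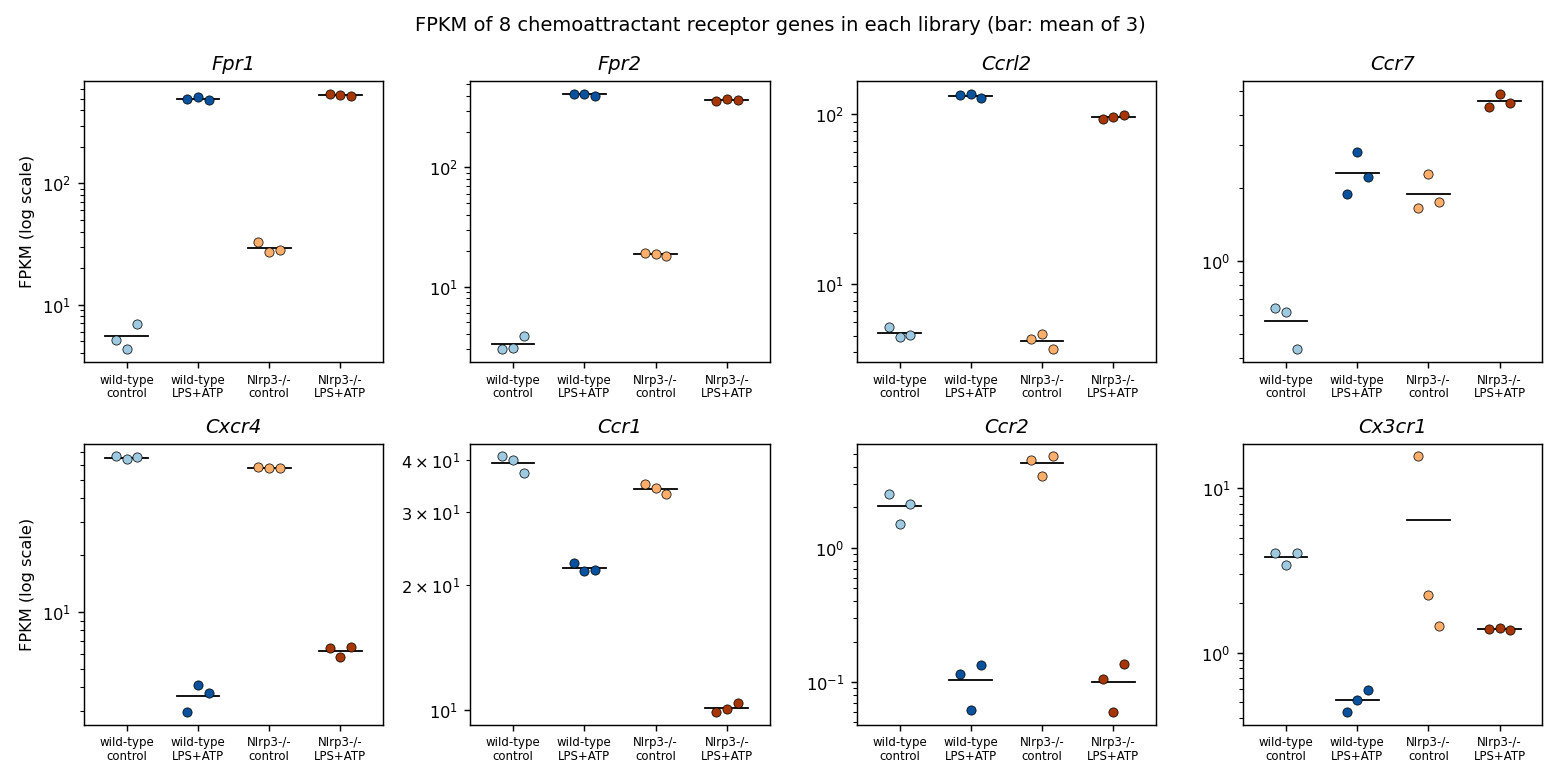
FPKM of each receptor gene in each library, on a log axis that differs between panels, for the 4 groups; points are libraries and bars are means of 3. Fpr1, Fpr2, Ccrl2 and Ccr7 lie higher and Cxcr4, Ccr1 and Ccr2 lower in LPS+ATP than in control libraries of either genotype, and 1 Nlrp3-/- control library stands apart for Cx3cr1, at 15.6 FPKM.

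Fpr1 and Fpr2 detect formylated peptides, and Fpr2 also binds serum amyloid A and annexin A1. Fpr1 was at 5.11, 4.30 and 6.996 FPKM in the wild-type control libraries and at 497, 519 and 488 FPKM after LPS+ATP. It was at 32.8, 27.4 and 28.0 FPKM in the Nlrp3-/- control libraries and at 548, 533 and 524 FPKM after LPS+ATP. No library of a stimulated group came near a control library, and the 3 Nlrp3-/- controls were all above the 3 wild-type controls. Fpr1 rose 91.7-fold in wild-type BMDMs, a log2 fold change of 6.30 ± 0.12 (SE, n = 3 per group) with an adjusted p of 1.6e-12 in limma. It rose 18.2-fold in Nlrp3-/- BMDMs, a log2 fold change of 4.14 ± 0.12.

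Fpr2 was at 2.98, 3.07 and 3.83 FPKM in wild-type controls and at 415, 415 and 401 FPKM after LPS+ATP. In Nlrp3-/- BMDMs it was at 19.3, 18.8 and 17.9 FPKM without and 365, 372 and 368 FPKM with stimulation. It followed the order of Fpr1 at the control level, and after stimulation the 3 Nlrp3-/- libraries lay below the 3 wild-type ones. Fpr2 rose 125-fold in wild-type BMDMs, with a log2 fold change of 6.59 ± 0.06 and an adjusted p of 7.2e-15, and 19.7-fold in Nlrp3-/- BMDMs, with 4.23 ± 0.06. By the size of the log2 fold change, Fpr2 was number 13 and Fpr1 number 17 of the 12622 genes in wild-type BMDMs. In Nlrp3-/- BMDMs they were number 67 and number 71. A near copy, Gm5966, is 95.677% identical to Fpr2 over 91.9% of its longest transcript, and Fpr3 is 87.798% identical over 99.8% and shares 48 exon bases with it on the same strand, so Fpr2 values are uncertain to the extent that reads were shared. Fpr3 itself was listed at 0 in all control libraries and was at most 0.875 FPKM after LPS+ATP.

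The stimulation effect differed between genotypes for both formyl peptide receptors, as the interaction term of the fit showed. The log2 fold change of Fpr1 was lower in Nlrp3-/- than in wild-type BMDMs by a difference of -2.16 ± 0.17 (adjusted p 5.7e-06), and that of Fpr2 by -2.35 ± 0.09 (adjusted p 3.3e-08). In the fit as designed they were the only receptors called in this comparison, and with a pseudocount of 0.1 Ccr2 was called as well. Here 2.15% of tested genes were called, 0.721% higher and 1.43% lower. The difference lay in the controls. Without stimulation Fpr1 was 5.38-fold and Fpr2 5.66-fold higher in Nlrp3-/- BMDMs, with log2 fold changes of 2.25 ± 0.12 (adjusted p 4.1e-08) and 2.20 ± 0.06 (adjusted p 2.2e-10). With LPS+ATP the genotypes differed by 0.09 for Fpr1 (95% confidence interval -0.17 to 0.36, adjusted p 0.56) and by -0.16 for Fpr2 (-0.29 to -0.02, adjusted p 0.060), and the sign for Fpr1 turned under median-ratio scaling, to -0.12. In the fit as designed, Fpr1 and Fpr2 were the only members called between unstimulated genotypes. A pseudocount of 0.1 added Ccr2 and Ccr7, and TPM scaling added Ccr7. In that comparison 6.71% of tested genes were called, 6.02% higher and 0.689% lower.

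Markers of neutrophils and their precursors moved with genotype too. Their 9 genes summed to 327 to 362 FPKM for the wild-type and 1771 to 1818 FPKM in Nlrp3-/- controls, and 6 of the 8 tested were called higher in Nlrp3-/- BMDMs. Mpo, the myeloperoxidase of granule precursors, was at 2.09 ± 0.06 FPKM for the wild-type and 53.3 ± 4.4 FPKM in Nlrp3-/- controls (SD, n = 3 each), and no marker of the list was at 0 in all 3 libraries of any group. Under LPS+ATP the sum was lower in both genotypes, 104 to 121 FPKM for the wild-type and 477 to 505 FPKM in Nlrp3-/- BMDMs. Fibroblast markers summed to 157 to 183 FPKM for the wild-type and 890 to 1180 FPKM in Nlrp3-/- libraries. Their part in the genotype differences was not tested.

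**Figure D2:**
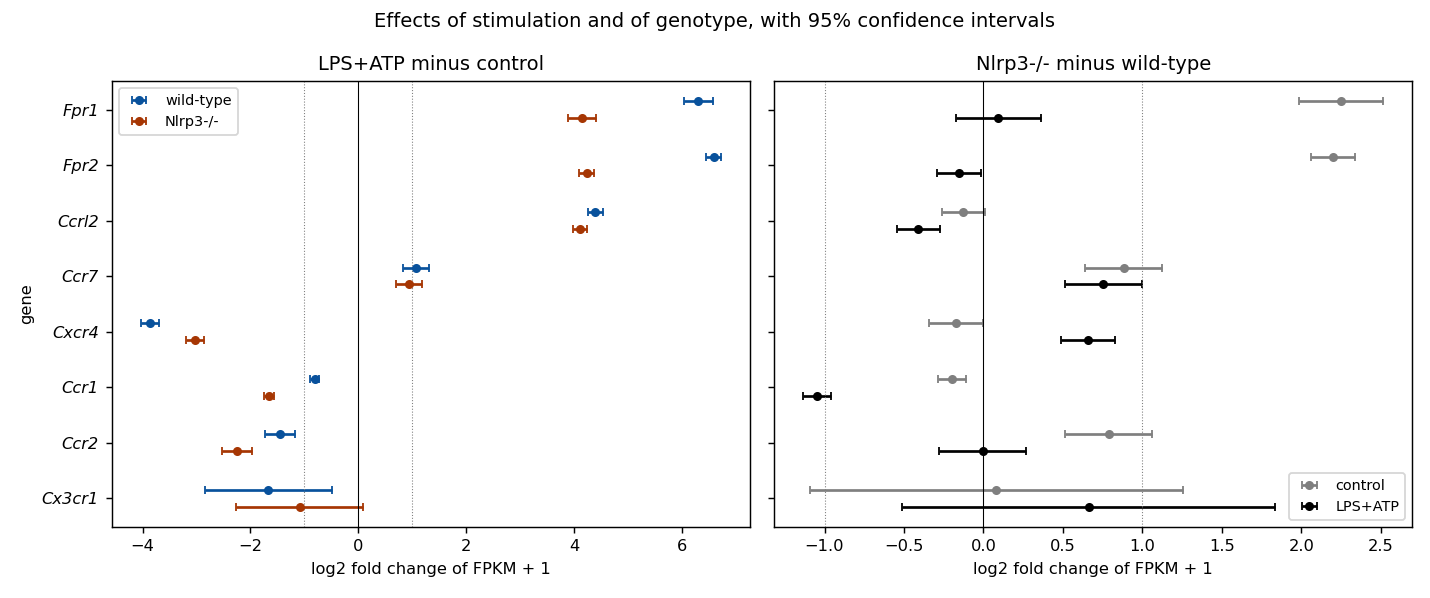
Log2 fold change of FPKM + 1 with its 95% confidence interval for each receptor, for LPS+ATP minus control in both genotypes (left) and Nlrp3-/- minus wild-type in both states (right); dotted lines mark the fold limit of 1. The genotypes differ for Fpr1 and Fpr2 at the control level, by 2.25 and 2.20, and the intervals for Cx3cr1 are the widest.

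Ccrl2 is an atypical receptor that holds the chemoattractant chemerin at the cell surface and does not signal through G proteins. It was at 5.59, 4.92 and 5.06 FPKM in wild-type controls and at 129.6, 132 and 125 FPKM after LPS+ATP. The Nlrp3-/- libraries had 4.75, 5.12 and 4.17 FPKM without and 93.9, 96.7 and 99.0 FPKM with stimulation. The control groups overlapped and the stimulated groups did not. Ccrl2 rose in wild-type BMDMs by a log2 fold change of 4.39 ± 0.06 (adjusted p 1.2e-13) and in Nlrp3-/- BMDMs by 4.11 ± 0.06 (adjusted p 2.8e-13), and the difference of -0.29 ± 0.09 had an adjusted p of 0.031. After LPS+ATP it was 1.33-fold lower in Nlrp3-/- BMDMs (log2 fold change -0.41, adjusted p 0.00019), which is under the fold limit. Rarres2, the gene of chemerin, was called higher with LPS+ATP in wild-type BMDMs (1.23 ± 0.11) and not in Nlrp3-/- BMDMs (0.47 ± 0.11), with a difference of -0.75 (adjusted p 0.0041). Its levels were low. Group means before and after LPS+ATP were 0.359 and 2.19 FPKM for the wild-type and 1.49 and 2.50 FPKM without Nlrp3. Between genotypes it was 0.88 higher in Nlrp3-/- controls (limma, adjusted p 4.8e-05) and differed by 0.12 after LPS+ATP (adjusted p 0.39).

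Ccr7 guides mature dendritic cells and lymphocytes to lymph nodes. It was at 0.644, 0.619 and 0.435 FPKM in wild-type controls and at 1.88, 2.81 and 2.22 FPKM after LPS+ATP. Nlrp3-/- controls had 1.65, 2.28 and 1.74 FPKM, and stimulated Nlrp3-/- libraries had 4.30, 4.87 and 4.45 FPKM. The stimulated libraries were above the controls in each genotype, and the Nlrp3-/- controls overlapped the stimulated wild-type libraries. The log2 fold change was 1.07 ± 0.11 in wild-type (adjusted p 4e-06) and 0.94 ± 0.11 in Nlrp3-/- BMDMs (adjusted p 1.4e-05), on either side of the fold limit, and the difference between genotypes was -0.13 ± 0.16 (adjusted p 0.60). Without the second stimulated wild-type library the first value was 0.96, under the limit, and without the second Nlrp3-/- control library the second was 1.04, over it. The Nlrp3-/- value also passed the limit with a pseudocount of 0.1 (1.23), TPM scaling (1.21) and median-ratio scaling (1.14). In the means Ccr7 rose 4.07-fold in wild-type and 2.40-fold in Nlrp3-/- BMDMs. The difference between genotypes was -0.62 with a pseudocount of 0.1 (limma, adjusted p 0.092) and -0.41 with TPM scaling (adjusted p 0.19). Ccr7 was higher in Nlrp3-/- than in wild-type BMDMs by 0.88 without and 0.75 with LPS+ATP (adjusted p 5e-05 and 0.00018), and the former passed the limit with a pseudocount of 0.1 (1.58) and TPM scaling (1.34). Of 7 dendritic cell markers only Fscn1 passed the filter, with group means of 5.95 and 8.37 FPKM for the wild-type and 21.04 and 23.7 FPKM for cells without Nlrp3, before and after LPS+ATP. The other 6, among them Flt3, Zbtb46 and Xcr1, had group means of at most 0.416 FPKM, and the part of these markers was not tested. Of its ligands, Ccl19 and Ccl21a did not pass the filter.

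Cxcr4 binds CXCL12 and keeps leukocytes and their precursors in the bone marrow. It was the most abundant of the 8 in control BMDMs, at 66.5, 64.5 and 66.1 FPKM for the wild-type and 58.3, 58.1 and 57.9 FPKM in Nlrp3-/- libraries. After LPS+ATP it was at 2.97, 4.12 and 3.72 FPKM for the wild-type and at 6.43, 5.78 and 6.51 FPKM in Nlrp3-/- libraries. Every stimulated library was under every control library, and the stimulated Nlrp3-/- libraries were above the wild-type ones. It fell 18.2-fold in wild-type (log2 fold change -3.86 ± 0.08, adjusted p 2.3e-12) and 9.31-fold in Nlrp3-/- BMDMs (-3.03 ± 0.08, adjusted p 2.3e-11). The fall was smaller in Nlrp3-/- BMDMs by 0.83 ± 0.11 (adjusted p 0.00022), which is under the fold limit. With LPS+ATP, Cxcr4 was 1.73-fold higher in Nlrp3-/- BMDMs (log2 fold change 0.66, adjusted p 3.1e-05). Cxcl12 was at 5.83 ± 0.30 FPKM for the wild-type and 26.1 ± 0.7 FPKM in Nlrp3-/- controls (SD, n = 3 each), which made 1.99 on the log2 scale, and it fell with LPS+ATP in Nlrp3-/- BMDMs (-1.11) and not in wild-type BMDMs (-0.06, adjusted p 0.72).

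Ccr1 and Ccr2 are receptors for inflammatory CC chemokines, and Ccr2 brings monocytes out of the marrow. Ccr1 was at 40.7, 39.9 and 37.2 FPKM in wild-type controls and at 22.6, 21.6 and 21.7 FPKM after LPS+ATP. In Nlrp3-/- BMDMs it was at 34.9, 34.3 and 33.1 FPKM without and 9.90, 10.0 and 10.4 FPKM with stimulation. None of the groups overlapped, with the stimulated Nlrp3-/- libraries the lowest. The log2 fold change was -0.81 ± 0.04 in wild-type (adjusted p 6.4e-09, under the fold limit) and -1.66 ± 0.04 in Nlrp3-/- BMDMs (adjusted p 1.6e-11), a difference of -0.85 ± 0.06 (adjusted p 1.9e-06). With LPS+ATP it was 2.17-fold lower in Nlrp3-/- BMDMs (log2 fold change -1.05 ± 0.04, adjusted p 4.2e-09), and it was the 1 receptor called between stimulated genotypes, where 5.05% of tested genes were called, 4.48% higher and 0.57% lower. Without stimulation it was 1.15-fold lower (log2 fold change -0.20, adjusted p 0.0019). Median-ratio scaling moved this value to -0.39 (adjusted p 9.9e-06) and the stimulation effect in wild-type cells to -0.50 (adjusted p 4.7e-07).

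Ccr2 was at 2.52, 1.52 and 2.14 FPKM for the wild-type and 4.55, 3.43 and 4.79 FPKM in Nlrp3-/- controls. After LPS+ATP it was at 0.115, 0.0616 and 0.133 FPKM for the wild-type and 0.105, 0.0600 and 0.137 FPKM in Nlrp3-/- libraries. Stimulated libraries of both genotypes lay together near 0, and the Nlrp3-/- controls were above the wild-type controls. The ratio of means was 19.9-fold in wild-type and 42.4-fold in Nlrp3-/- BMDMs, while on the log2(FPKM + 1) scale, which understates changes of low genes, Ccr2 fell by 1.46 (adjusted p 7.3e-07) and by 2.25 (adjusted p 2.1e-08). Without stimulation it was 2.07-fold higher in Nlrp3-/- BMDMs (log2 fold change 0.79 ± 0.12, adjusted p 3e-04), under the fold limit, and the interaction was -0.79 ± 0.18 (adjusted p 0.0064). With a pseudocount of 0.1 in place of 1 both passed the limit, at 1.03 (adjusted p 0.0038) and -1.05 (adjusted p 0.039). Monocyte markers summed to 104 to 110 FPKM for the wild-type and 176 to 190 FPKM in Nlrp3-/- controls and to 445 to 451 and 368 to 427 FPKM after LPS+ATP, but the 4 genes did not move together. With LPS+ATP, Ms4a4c and Ly6c2 were called higher in both genotypes, with log2 fold changes of 5.97 and 1.95 for the wild-type and of 5.98 and 1.18 for cells without Nlrp3. F13a1 and Chil3 were called lower, with -1.19 and -1.73 for the wild-type and -1.35 and -2.25 for cells without Nlrp3. Between the control genotypes Ly6c2 was higher in cells without Nlrp3 (1.82) and Ms4a4c had a log2 fold change of -0.72. The part of these markers in the Ccr2 values was not tested.

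Cx3cr1 binds fractalkine and marks resident macrophages and monocytes. It was at 4.01, 3.42 and 4.01 FPKM in wild-type controls and at 0.435, 0.515 and 0.588 FPKM after LPS+ATP. Nlrp3-/- controls had 15.6, 2.23 and 1.45 FPKM, and the stimulated libraries 1.40, 1.42 and 1.36 FPKM. The first Nlrp3-/- control library was above all 11 others and decided the Cx3cr1 results of that group. In wild-type BMDMs it fell by 1.67 on the log2 scale (adjusted p 0.014), 7.43-fold in the means. The change in Nlrp3-/- BMDMs was -1.09 ± 0.53 (adjusted p 0.085), and without the first control library it was -0.23 (adjusted p 0.084). Without the second or the third control library it was -1.41 (adjusted p 0.049) and -1.61 (adjusted p 0.014), and both were called. The difference between genotypes was 0.08 at the control level (adjusted p 0.92) and -0.77 (adjusted p 0.00026) without that library. The interaction was 0.58 (adjusted p 0.62) with it and 1.44 (adjusted p 9.5e-05) without it. Cx3cr1 was 0.66 higher with LPS+ATP in Nlrp3-/- BMDMs (adjusted p 0.33), and that value had an adjusted p of 0.00031 without the library, which enters the shared spread. An antisense gene, Gm33858, overlaps 1.73% of the exon bases of Cx3cr1, and whether reads were counted by strand is not given in the sources used here. Fractalkine, Cx3cl1, was 1.02 higher on the log2 scale in stimulated Nlrp3-/- than in wild-type BMDMs (adjusted p 1.2e-07).

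The rise of the formyl peptide receptors set the summed level of the 8 genes. The sum was 122 to 128 FPKM for the wild-type and 149 to 172 FPKM in Nlrp3-/- controls, and 1042 to 1096 and 1014 to 1029 FPKM after LPS+ATP. Fpr1 and Fpr2 together made 6.03% to 8.61% of it in wild-type controls, 30.3% to 30.8% in Nlrp3-/- controls, 85.3% in stimulated wild-type libraries and 88.0% to 88.7% in stimulated Nlrp3-/- libraries. Cxcr4 made 51.9% to 52.8% in wild-type controls and at most 0.643% after stimulation. Median-ratio scaling was listed for the fits, and its use on these sums was added after seeing the data. With it the sums were 117 to 122, 1230 to 1311, 123 to 142 and 1033 to 1049 FPKM for wild-type BMDMs without and with LPS+ATP and then Nlrp3-/- BMDMs without and with it. In both stimulated groups the order was Fpr1, Fpr2, Ccrl2, Ccr1, Cxcr4, Ccr7, Cx3cr1 and Ccr2, with no overlap between neighbours. Wild-type controls ran Cxcr4, Ccr1, Fpr1, Ccrl2, Cx3cr1, Fpr2, Ccr2 and Ccr7, and Fpr1 and Ccrl2 overlapped, as did Cx3cr1 and Fpr2.

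**Figure D3:**
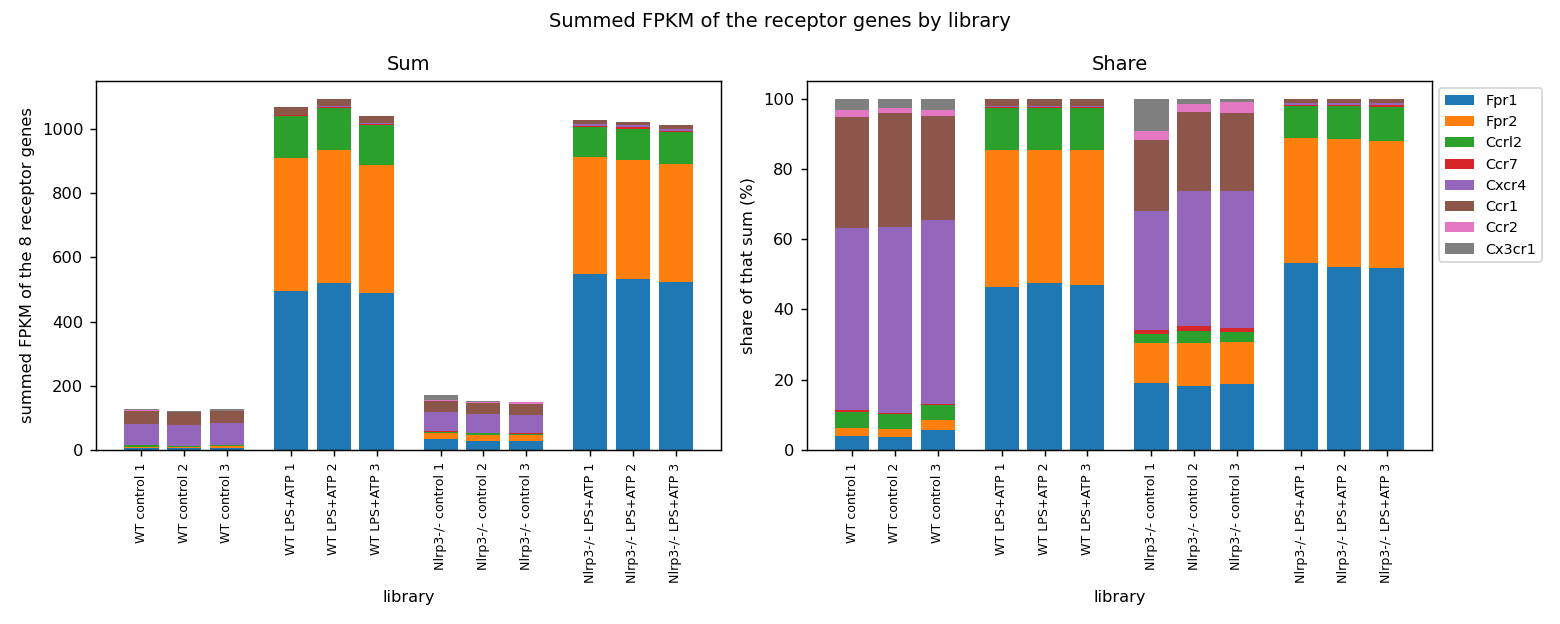
Summed FPKM of the 8 receptor genes in each of the 12 libraries (left) and the share of each gene in that sum in percent (right); WT is wild-type. Cxcr4 and Ccr1 fill most of the control bars, and Fpr1 and Fpr2 make 85.3% to 88.7% of the sum in the 6 LPS+ATP libraries.

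Among the ligands of these receptors 15 of 17 genes were tested, and LPS+ATP raised 10 and lowered 1 in wild-type cells and raised 8 and lowered 2 in those without Nlrp3, beside a background of 8.25% and 11.2% and of 6.64% and 8.21% of tested genes. Their median log2 fold change was 1.67 and 1.16, beside -0.25 and -0.24 over all tested genes. Most ligands of Ccr1 and Ccr2 rose while the receptors were lower. Ccl5, a ligand of Ccr1, went from 3.07 ± 0.42 to 1547 ± 122 FPKM in wild-type BMDMs (log2 fold change 8.57, adjusted p 6.3e-14), and Ccl3 rose by 4.21. Ccl2, Ccl7 and Ccl12, ligands of Ccr2, rose as well, with log2 fold changes of 4.08, 3.34 and 5.01 in wild-type cells and 3.51, 2.51 and 4.26 in those without Nlrp3. Ccl6 changed by -0.26 and -0.68, within the fold limit. Saa3, a serum amyloid A gene, rose with Fpr2, with log2 fold changes of 7.38 (wild-type) and 6.20 (Nlrp3-/-), with an interaction of -1.18 (adjusted p 7.2e-07). Anxa1, the gene of annexin A1, fell (-2.02 and -1.59).

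**Figure D4:**
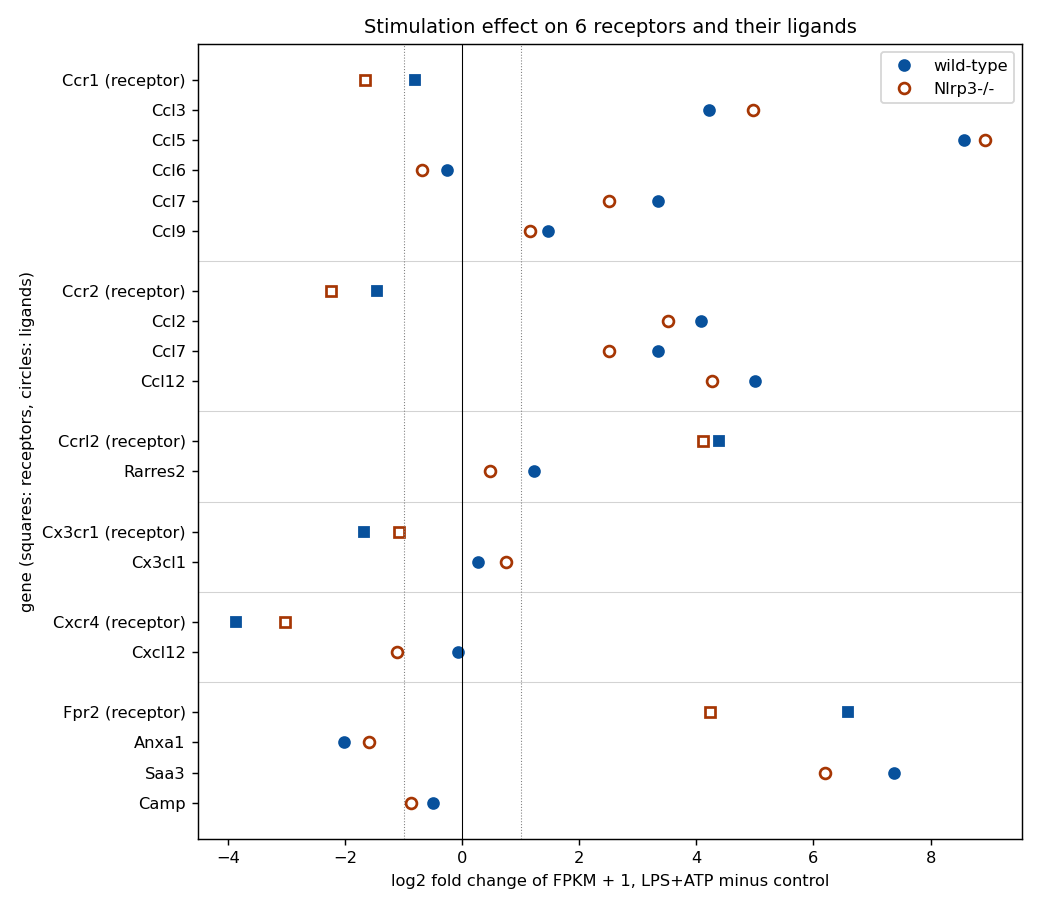
Log2 fold change of FPKM + 1, LPS+ATP minus control, for 6 receptors (squares) and their ligands (circles) in wild-type (filled) and Nlrp3-/- (open) BMDMs. Ccl2, Ccl7 and Ccl12 lie above 2.5 where Ccr2 lies at -1.46 and -2.25, and Fpr2 and Saa3 are both above 4.

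Most other chemokine receptors were low, and 5 of 18 passed the filter. Cxcr3, a receptor for interferon-induced chemokines, fell by 1.10 in wild-type and was at 0.04 in Nlrp3-/- BMDMs, with an interaction of 1.13 (adjusted p 0.00014). Ackr3, an atypical receptor for CXCL12, rose by 1.08 and 1.12. Of 17 other chemoattractant receptors 8 were tested, and none rose past the limit while 3 fell in wild-type and 4 in Nlrp3-/- BMDMs, beside 11.2% and 8.21% of tested genes called lower. These were the complement receptors C3ar1 (-1.55 and -1.82) and C5ar1 (-1.77 and -1.62), the oxysterol receptor Gpr183 (-2.30 and -1.63) and the leukotriene receptor Ltb4r1 (-0.26 and -1.69), the last called in Nlrp3-/- BMDMs alone, with an interaction of -1.43 (adjusted p 6e-05). The median of this list was -0.26 in wild-type and -0.73 in Nlrp3-/- BMDMs, beside -0.25 and -0.24 over all tested genes.

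All 23 genes of receptor signalling and desensitization were tested, and 1 rose in each genotype, while 7 fell in wild-type cells and 8 in those without Nlrp3. Of all tested genes 8.25% and 6.64% were called higher and 11.2% and 8.21% lower. Rgs16, which speeds the switching off of Gαi proteins, rose by 2.56 and 2.55. Rgs10, Rgs2 and Rgs18, of the same family, fell in both genotypes, with log2 fold changes of -2.95, -2.94 and -2.47 in wild-type cells and of -2.42, -1.94 and -2.53 in cells without Nlrp3. The fall of Rgs2 was smaller in Nlrp3-/- BMDMs, with an interaction of 1.01 (adjusted p 1.2e-05). No gene of this list was called between genotypes in either state, where 6.71% and 5.05% of tested genes were.

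Over the 12 libraries, which share the 4 groups and are not 12 independent conditions, the genes most like each receptor among 12614 others were found by Pearson's r of log2(FPKM + 1). Ccrl2 ran closest to Cpd (r = 0.9993) and Il1rn (0.9991), the gene of the IL-1 receptor antagonist, and Cxcr4 to Anxa1 (0.9985) and Gsn (0.9981). Fpr1 ran closest to Clmp (0.9978) and Mmp14 (0.9977), and Fpr2 to Dst and Marco (0.999 each), the latter a scavenger receptor. Ccr1 was most like Vim (0.9919) and Kcnn4 (0.9849), Ccr2 like Irf2bp2 (0.9927) and Agps (0.99), and Ccr7 like Cyp7b1 (0.9871). Cx3cr1 had the lowest likeness, with Pcbp2 (0.9171) and Rbm14 (0.9165). Between members, r was 0.9989 for Fpr1 with Fpr2 and -0.9945 for Ccrl2 with Cxcr4.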

How the data were processed

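Total RNA was taken with Trizol from BMDMs of both genotypes, stimulated or not, giving 12 libraries. Their FPKM values, computed and deposited by the authors, stand in a single table of genes by libraries. The submitters' processing notes name GRCm39 and DESeq2 1.24.0, with no role, and the aligner, counter and annotation are not given in the sources used here. FPKM holds no read counts, so depth in reads is unknown; relative depth read from the steps of low values ran from 1.000 to 1.215.

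A gene entered the test where 3 or more of the 12 libraries reached an FPKM of 1, which held for 12622 of 55335. limma 3.58.1 (R 4.3.3) was fitted to log2(FPKM + 1) with 4 group means and a variance trend, after tests on simulated data. A call needed a fold change of 1 or more on the log2 scale besides an adjusted p (Benjamini-Hochberg) below 0.05. Overlaps and near copies (blastn 2.17.0+, at least 95% identity over at least 20% of the transcript) came from GENCODE M21.

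The members and lists were chosen with earlier results of these data known. Named were every member and Nlrp3; called genes of the other lists with the 3 largest rises, falls or genotype differences; ligands beside their receptor; and the 2 genes most like each member. A few items that this rule names are not reported here. Other genes named as sex or cell markers, and those named without a call, were chosen after their values were seen. Alternatives covered pseudocount, filters, fold limit, scaling, variance trend, groups fitted, replicate block and leaving out each library. TPM scaling enlarged all values, from library sums of 283278 to 299393 FPKM, and still added 1. It therefore also acted as a smaller pseudocount.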

Additional observations from a re-analysis of the deposited data

Results flagged for a closer look

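On the log2 scale the stimulation effect of both formyl peptide receptors differed between genotypes by the test of the difference itself. The difference lay in the controls. Without stimulation Fpr1 and Fpr2 were higher in Nlrp3-/- BMDMs by 2.25 and 2.20. After LPS+ATP the genotypes differed by 0.09 and -0.16, and neither was called. For Fpr1 the log2 fold change under LPS+ATP was 6.30 in wild-type and 4.14 in Nlrp3-/- BMDMs, a difference of -2.16 (limma, adjusted p 5.7e-06). For Fpr2 it was 6.59 and 4.23, a difference of -2.35 (adjusted p 3.3e-08). Leaving out each library in turn gave -2.32 to -2.02 for Fpr1 and -2.44 to -2.30 for Fpr2, and neither call was lost. Neutrophil and precursor markers, which were also higher in Nlrp3-/- controls, were not tested for their part in these differences.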

How the results depend on the processing

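Most of the 40 receptor values kept their direction and their side of the threshold. With a pseudocount of 0.1, 35 of 40 did, with TPM scaling 38, with median-ratio scaling 37, and with no filter, no variance trend or a replicate block 40 each. Directions that turned were Cx3cr1 between control genotypes (-0.023 with pseudocount 0.1, -0.0595 with median-ratio scaling, -0.77 without the first Nlrp3-/- control library, and -0.77 to 0.61 over the libraries left out), Fpr1 between stimulated genotypes (-0.12 with median-ratio scaling) and Ccr2 between stimulated genotypes, which ran from -0.031 to 0.023 over the libraries left out, with 0.004, 0.016 and 0.023 for the 3 that turned it. The called receptors were 4 for control genotypes and 3 for the interaction with pseudocount 0.1, where Ccr2 was gained in both and Ccr7 in the former. With no fold limit they were 5 for control genotypes, 4 for stimulated genotypes and 6 for the interaction, and they were 4 for stimulation in wild-type BMDMs with a filter at FPKM of at least 5, where Ccr2, Ccr7 and Cx3cr1 were not tested. Leaving out one library gave 6 to 7 called receptors for stimulation in wild-type, 6 to 8 in Nlrp3-/- BMDMs and 2 to 3 for the interaction.

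Over all tested genes, called counts with pseudocount 0.1 were 3702 and 2847 for stimulation in wild-type and Nlrp3-/- BMDMs, 1428 and 1406 for control and stimulated genotypes and 634 for the interaction, against 2452, 1874, 847, 637 and 271. With no fold limit they were 9641, 9383, 6035, 6124 and 3494. TPM scaling gave 1285, 1175 and 501 for the genotypes and the interaction, and a filter at 5 gave 515 for control genotypes. Median-ratio scaling moved the median of all genes by 0.24, 0.23, -0.15 and -0.17 for stimulation in wild-type and Nlrp3-/- BMDMs and for control and stimulated genotypes, and the share of calls that were higher from 42.5% to 60.8%, 44.7% to 64.6%, 89.7% to 79.6% and 88.7% to 77.5%.

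Same-numbered libraries did not deviate together (r from -0.0565 to 0.0528), so the numbers were not taken as pairs. With the replicate block, 2453, 1876, 847, 636 and 268 genes were called, and no receptor call changed. FPKM gives no read depth, so precision at low levels such as those of Ccr2 and Ccr7 cannot be stated.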
